A study of Rattus norvegicus with 30 samples.

Results

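Kit ligand (Kitlg), its receptor Kit and 7 other genes chosen for spermatogonial differentiation, Sohlh1, Sohlh2, Dmrt1, Dazl, Neurog3, Sox3 and Magec2, were followed through the postnatal rat testis and through cultures of immature testis. They were chosen by name and matched to the expression table by the Entrez Gene identifiers of the rat symbols. Of the 9 genes named, 8 had a value in the table of 17322 genes. Sox3 had none and was not analysed here. Of those 8 genes, 7 passed the filter on low values in the comparisons made, and Neurog3 did not.

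Spermatogonia are the mitotic germ cells of the testis, and they leave the undifferentiated state to become differentiating cells that divide and enter meiosis. Kit ligand, made by Sertoli cells, is a growth factor that acts on the receptor tyrosine kinase KIT, which appears on germ cells as they differentiate. SOHLH1 and SOHLH2 are transcription factors of that transition, DMRT1 is a transcription factor of Sertoli cells and spermatogonia, and DAZL is an RNA-binding protein that germ cells need before meiosis.

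The study asked how spermatogenesis proceeds when pieces of immature rat testis are kept in culture. RNA was taken from testes of Wistar Han rats, with no culture, at 8.5, 14.5 and 24.5 days postpartum (dpp), at 30.5 and at 36.5 dpp, and last at 53.5 dpp. The other RNA was from explants after 6 days of culture (D6), 16 days (D16), 22 days (D22) or 28 days (D28). Explants were 8.5 dpp testes cut into 6 pieces and placed on agarose at the gas-liquid interphase, in αMEM with gentamicin, Knock-out serum replacement, retinol and vitamin E. Counted from 8.5 dpp, D6 has the age of 14.5 dpp, D16 that of 24.5 dpp, D22 that of 30.5 dpp and D28 that of 36.5 dpp. Every group had 3 libraries except 14.5 dpp, which had 2. The in vivo libraries of an age came from different testes. Each cultured library pooled 12 explants from at least 3 males, with the necrotic centre of the explants removed. The culture groups therefore differ from the in vivo groups in pooling and dissection as well as in culture, and these cannot be told apart.

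Levels are in FPKM, which relates the sequenced fragments of a gene to its length and to the mapped reads of the library, for polyadenylated RNA of whole tissue in 29 libraries. Between 12520 and 13563 genes were above 0 in a library. Sertoli cell markers were present in all groups (10 of 10 genes, Clu the most abundant), with a mean summed level of 1511 FPKM at 8.5 dpp, 2159 at 14.5 dpp, 633 at 36.5 dpp and 4227 at D28. This sum does not stand for the list as a whole, since at D28 against 14.5 dpp 1 of the 10 markers was higher and 9 were not called (median log2 difference 0.16). Similarly the sum was 2358 at 24.5 dpp, where 6 of the 10 were lower than at 14.5 dpp and 1 higher (median -0.96). The 5 germ cell markers, led by Mael, summed to a mean of 22.0 FPKM at 8.5 dpp, 102 at 14.5 dpp and 761 at 24.5 dpp, and to 47.6, 57.8, 88.3 and 53.2 FPKM at D6, D16, D22 and D28. The 2 libraries of 14.5 dpp stood apart in this sum, at 65.5 and 138 FPKM. A lower level in whole tissue can come from fewer cells of a type or from less RNA per cell, and these data cannot tell the 2 apart.

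A gene is called here when its limma p value, adjusted over all genes tested, is at most 0.05 and the ratio of its group medians is at least 2. Differences are on the scale of log2(FPKM + 1), the group named first minus the other. From 8.5 to 14.5 dpp, when spermatogonia differentiate and meiosis begins, 5 of the 7 genes rose (Kit, Kitlg, Sohlh1, Sohlh2 and Dazl) and none fell, where 14.7% of 12531 genes were called. From 14.5 to 24.5 dpp 5 were called, with Dazl and Magec2 higher and Kitlg, Sohlh1 and Dmrt1 lower, against 35.6% of genes. From 24.5 to 30.5 dpp 6 were called and all 6 fell, against 37.6%, and Kit was the exception. From 30.5 to 36.5 dpp limma called 0 of the 7, against 7.49%, and the unadjusted p was under 0.05 for 6 of them. Kit, -0.60 (adjusted p = 0.0138), and Kitlg, -0.54 (adjusted p = 0.0230), also passed the adjusted threshold there and missed only the ratio of 2. From 36.5 to 53.5 dpp Kit and Kitlg fell, against 6.54% of genes, and quantile normalization lowered the number of genes called in this step from 820 to 487. Sohlh2, -0.70 (adjusted p = 0.00345), Dmrt1, -0.66 (adjusted p = 0.0238), and Dazl, -0.98 (adjusted p = 0.00770), also passed limma's adjusted threshold in this step and missed only the ratio of 2. Kit, Kitlg, Sohlh1 and Dmrt1 had their highest median at 14.5 dpp, and Sohlh2, Dazl and Magec2 had theirs at 24.5 dpp.

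**Figure D1:**
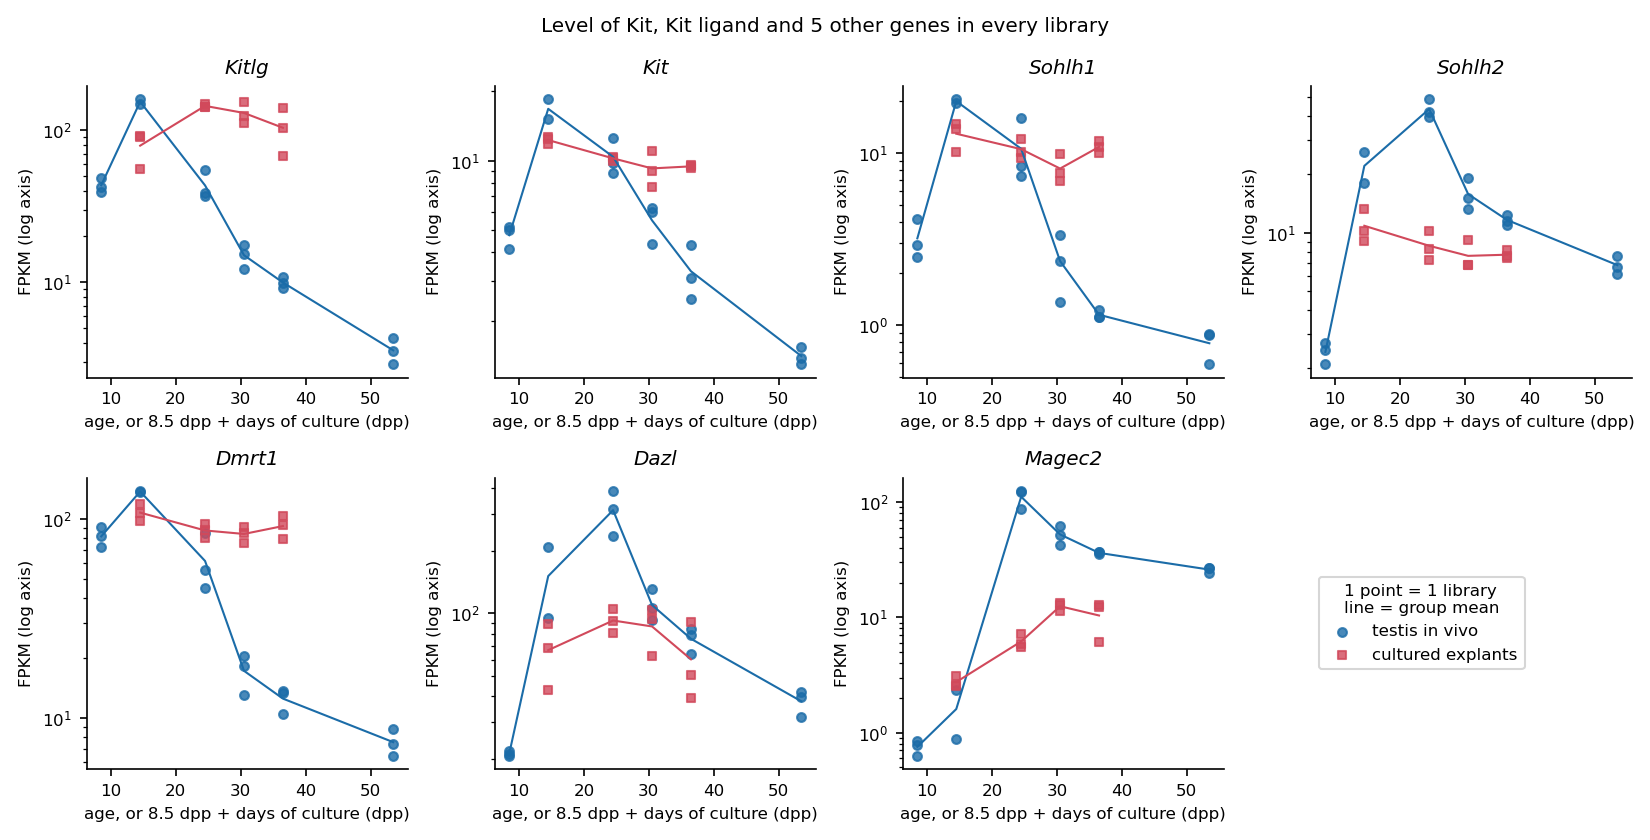
Level of 7 genes in FPKM on a log axis (points are libraries, lines join group means) against age in vivo, or 8.5 dpp plus the days of culture. Kitlg fell in vivo to 4.31, 2.89 and 3.52 FPKM at 53.5 dpp, while its cultured libraries lay between 55.1 and 152 FPKM.

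Kitlg (Entrez Gene 60427) encodes the ligand. The 8.5 dpp testes had 48.7, 42.5 and 39.1 FPKM, the 14.5 dpp testes 148 and 159 and the 24.5 dpp testes 38.4, 36.8 and 54.7. The later testes had 15.4, 12.2 and 17.7 FPKM at 30.5 dpp, 9.96, 9.15 and 10.8 at 36.5 dpp and 4.31, 2.89 and 3.52 at 53.5 dpp. Both 14.5 dpp libraries were above every other in vivo library, and from 24.5 dpp on each age lay below the one before with no overlap. The rise to 14.5 dpp was 1.80 (SE 0.19, adjusted p = 8.82e-06), and the later steps were -1.82 (SE 0.19, adjusted p = 1.49e-06) to 24.5 dpp, -1.46 (SE 0.17, adjusted p = 3.61e-06) to 30.5 dpp, -0.54 (SE 0.17, adjusted p = 0.0230) to 36.5 dpp, short of the ratio of 2, and -1.27 (SE 0.17, adjusted p = 0.000319) from 36.5 to 53.5 dpp.

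In the explants Kitlg stood at 91.3, 90.7 and 55.1 FPKM at D6, 143, 141 and 149 at D16, 112, 152 and 125 at D22 and 67.7, 140.0 and 103 at D28. All cultured libraries were above all 8.5 dpp libraries, the third of D6 and the first of D28 were the lowest of their groups, and D16 overlapped the 14.5 dpp range. Against the testis of the same age Kitlg was higher by 1.74 (SE 0.16, adjusted p = 9.98e-05) at D16, 3.03 (SE 0.17, adjusted p = 3.38e-06) at D22 and 3.20 (SE 0.25, adjusted p = 1.04e-05) at D28. Each of these comparisons had no overlap, and at D6 the explants were instead below the 14.5 dpp testes, by -0.99 (SE 0.24, adjusted p = 0.0440), which missed the ratio of 2. Against 14.5 dpp, D16, D22 and D28 differed by -0.09, -0.25 and -0.62 (adjusted p of the F test over the 3 contrasts 0.172), and none was called. Against 8.5 dpp Kitlg was higher at D6, 0.82 (SE 0.24, adjusted p = 0.0124), and at D28, 1.18 (SE 0.24, adjusted p = 0.000839). The D6 call was lost without the third 8.5 dpp library, 0.75 (adjusted p = 0.0463), the first D6 library, 0.70 (adjusted p = 0.0532), or the second, 0.70 (adjusted p = 0.0526).

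Kit (Entrez Gene 64030) encodes the receptor. It had 4.96, 5.13 and 4.10 FPKM at 8.5 dpp, 15.1 and 18.5 at 14.5 dpp and 9.78, 8.80 and 12.6 at 24.5 dpp. Later testes had 6.19, 4.34 and 5.95 FPKM at 30.5 dpp, 4.31, 3.08 and 2.51 at 36.5 dpp and 1.39, 1.3 and 1.55 at 53.5 dpp. The 14.5 dpp libraries were the highest of all 29, and the 53.5 dpp libraries the lowest. Kit rose by 1.63 (SE 0.19, adjusted p = 1.92e-05) to 14.5 dpp and fell from 36.5 to 53.5 dpp, -0.81 (SE 0.17, adjusted p = 0.00276). The differences between were -0.65, -0.81 and -0.60 and missed the ratio of 2, although the adjusted p values were 0.00740, 0.000587 and 0.0138. The last of them was called without the first 36.5 dpp library, -0.77 (adjusted p = 0.00590).

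Kit in explants was 12.6, 11.8 and 12.5 FPKM at D6, 10.4, 10.3 and 10.0 at D16, 11, 7.69 and 9.04 at D22 and 9.59, 9.44 and 9.29 at D28. Its cultured libraries therefore lay between 7.69 and 12.6 FPKM, all above 8.5 dpp and all below 14.5 dpp. At D16 they overlapped the 24.5 dpp testes, with a difference of -0.01 (SE 0.13, adjusted p = 0.967) whose sign turned under quantile normalization (0.03) and upper quartile scaling (0.02). At D22 the explants were above the 30.5 dpp testes, 0.66 (SE 0.17, adjusted p = 0.00762), short of the ratio of 2. At D28 Kit was higher than at 36.5 dpp, 1.3 (SE 0.16, adjusted p = 0.000131), with no overlap. Quantile normalization took that value to 0.82, still called. Against 14.5 dpp the differences of -0.66, -0.80 and -0.76 at D16, D22 and D28 (F test, adjusted p = 0.00533) missed the ratio of 2. The D22 difference was called without the first 14.5 dpp library, -0.94 (adjusted p = 0.00359), or the first D22 library, -0.92 (adjusted p = 0.00102). Against 8.5 dpp Kit was higher at D6, 1.22 (SE 0.10, adjusted p = 1.13e-06). At D28 it was 0.87 (SE 0.10, adjusted p = 1.11e-05), which missed the ratio of 2 and reached it without the first or the second 8.5 dpp library, at 0.90 (adjusted p = 6.01e-05) and 0.92 (adjusted p = 4.08e-05).

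Sohlh1 (Entrez Gene 362085) encodes a basic helix-loop-helix factor of spermatogonia, and proteins of that class bind the E-box, CANNTG. The promoters of Kit, Kitlg, Sohlh1 and Dmrt1 are shown because these 4 genes ran close together over the 10 groups (r from 0.890 for Kit with Dmrt1 to 0.969 for Kit with Sohlh1, over group means that share libraries), and each holds at least 1 E-box, in capitals. Sequences are from RefSeq, build GRCr8, while the study's values were made on rn6, so coordinates differ between the builds. Each runs 5′ to 3′ from 250 bases before the gene's start to 50 after, at chr14:32978763-32979062 (minus strand), chr7:36782410-36782709 (plus strand), chr3:29065539-29065838 (minus strand) and chr1:232568929-232569228 (plus strand).
Kit: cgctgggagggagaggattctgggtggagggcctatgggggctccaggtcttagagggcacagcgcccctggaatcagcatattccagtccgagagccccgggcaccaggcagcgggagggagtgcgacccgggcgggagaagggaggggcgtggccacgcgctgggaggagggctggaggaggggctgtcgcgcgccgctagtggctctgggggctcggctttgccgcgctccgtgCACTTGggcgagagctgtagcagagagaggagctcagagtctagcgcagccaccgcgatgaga
Kitlg: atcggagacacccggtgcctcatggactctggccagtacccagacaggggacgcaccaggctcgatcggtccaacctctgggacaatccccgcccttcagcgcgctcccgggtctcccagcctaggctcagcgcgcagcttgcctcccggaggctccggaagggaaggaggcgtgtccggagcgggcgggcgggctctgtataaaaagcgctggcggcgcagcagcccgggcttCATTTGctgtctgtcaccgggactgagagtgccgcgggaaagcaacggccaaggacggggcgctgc
Sohlh1: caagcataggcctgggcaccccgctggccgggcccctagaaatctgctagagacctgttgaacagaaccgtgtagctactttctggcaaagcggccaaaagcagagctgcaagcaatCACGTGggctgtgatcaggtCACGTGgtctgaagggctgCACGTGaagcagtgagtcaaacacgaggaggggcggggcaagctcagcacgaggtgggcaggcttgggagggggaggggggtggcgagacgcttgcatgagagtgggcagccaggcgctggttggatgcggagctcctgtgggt
Dmrt1: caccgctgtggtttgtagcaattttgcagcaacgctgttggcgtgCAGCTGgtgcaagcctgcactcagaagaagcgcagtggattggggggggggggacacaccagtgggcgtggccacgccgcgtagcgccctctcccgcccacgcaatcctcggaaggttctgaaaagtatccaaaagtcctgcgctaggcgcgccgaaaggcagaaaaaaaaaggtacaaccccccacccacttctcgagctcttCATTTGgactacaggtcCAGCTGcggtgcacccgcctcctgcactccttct
The Sohlh1 promoter holds 3 E-boxes at -133, -113 and -94 from the start, and all 3 read CACGTG, a form of CANNTG that is its own reverse complement. The Dmrt1 promoter also holds 3, at -205, -1 and 17, and none of them reads CACGTG. On either strand CANNTG is in 72.1% of 33469 promoters of this length and occurs 3 times or more in 16.6%, while CACGTG is in 6.42% and occurs 3 times or more in 0.057%, or 19 promoters. Sohlh2, Dazl, Neurog3 and Sox3 hold CANNTG in this window too, so it does not set the genes shown apart. A match is a description of the letters and says nothing of binding.

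Sohlh1 was at 2.93, 2.5 and 4.16 FPKM at 8.5 dpp, 19.5 and 20.6 at 14.5 dpp and 8.40, 7.37 and 16.0 at 24.5 dpp. It was at 3.34, 1.37 and 2.36 FPKM at 30.5 dpp, 1.12, 1.22 and 1.11 at 36.5 dpp and 0.880, 0.592 and 0.883 at 53.5 dpp. The 14.5 dpp libraries were above all others, and the third 24.5 dpp library was well above the other 2 of its age. Sohlh1 rose to 14.5 dpp, 2.35 (SE 0.28, adjusted p = 2.52e-05), and fell to 24.5 dpp, -0.93 (SE 0.28, adjusted p = 0.00934), and to 30.5 dpp, -1.76 (SE 0.25, adjusted p = 2.23e-05). The fall to 24.5 dpp was not called without the second 14.5 dpp library, -0.90 (adjusted p = 0.0515), the first 24.5 dpp library, -0.82 (adjusted p = 0.0351), or the second, -0.73 (adjusted p = 0.0427). The step from 30.5 to 36.5 dpp, -0.60 (SE 0.25, adjusted p = 0.0743), was called without the second 30.5 dpp library, -0.83 (adjusted p = 0.0189), and, with the same difference, without the third 24.5 dpp library, -0.60 (adjusted p = 0.0239). It was also called in the fit of all 10 groups, -0.60 (adjusted p = 0.0354), and with a pseudocount of 0.1, -0.89 (adjusted p = 0.0469).

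Explants had 14.8, 13.9 and 10.2 FPKM of Sohlh1 at D6, 9.37, 10.2 and 12.1 at D16, 6.91, 7.65 and 9.83 at D22 and 10.8, 10.0 and 11.7 at D28. The 12 cultured libraries lay above 8.5 dpp and every age from 30.5 dpp on and below 14.5 dpp, and at D16 they overlapped 24.5 dpp. Sohlh1 was higher than in the testis of the same age at D22, 1.48 (SE 0.23, adjusted p = 0.000708), and at D28, 2.46 (SE 0.10, adjusted p = 4.16e-07). The D16 difference was 0.06 (SE 0.27, adjusted p = 0.853), and leaving out the first or second 24.5 dpp library or the third D16 library turned its sign (-0.06, -0.14 and -0.03). Against 14.5 dpp it was lower at D22, -1.22 (SE 0.15, adjusted p = 0.000299), while D16 and D28 were -0.87 and -0.83 and missed the ratio of 2 (F test, adjusted p = 0.00149). The D16 difference was called without the first 14.5 dpp library, -0.91 (adjusted p = 0.00955), or the third D16 library, -0.97 (adjusted p = 0.00346). Against 8.5 dpp Sohlh1 was higher at D6, 1.74 (SE 0.17, adjusted p = 3.43e-06), and D28, 1.52 (SE 0.17, adjusted p = 5.75e-06).

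Sohlh2 (Entrez Gene 619575) encodes the partner factor of SOHLH1, and had its highest median at 24.5 dpp, where Sohlh1 had its highest at 14.5 dpp. Testes had 2.69, 2.5 and 2.10 FPKM at 8.5 dpp, 18 and 26.2 at 14.5 dpp and 39.7, 41.8 and 48.8 at 24.5 dpp. They had 19.1, 13.3 and 15.1 FPKM at 30.5 dpp, 12.4, 11.5 and 11 at 36.5 dpp and 6.16, 6.65 and 7.62 at 53.5 dpp. The 24.5 dpp libraries were the highest and the 8.5 dpp libraries the lowest, and no 2 successive ages overlapped. Sohlh2 rose to 14.5 dpp, 2.73 (SE 0.17, adjusted p = 9.71e-08), and fell from 24.5 to 30.5 dpp, -1.41 (SE 0.15, adjusted p = 1.99e-06). The step between, 0.96 (SE 0.17, adjusted p = 0.000194), missed the ratio of 2. It was called without the second 14.5 dpp library, 1.22 (adjusted p = 0.000103), the first 24.5 dpp library, 1.02 (adjusted p = 0.000430), or the second, 0.98 (adjusted p = 0.000673).

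In culture Sohlh2 was at 13.3, 10.2 and 9.12 FPKM at D6, 8.29, 7.24 and 10.2 at D16, 9.17, 6.86 and 6.79 at D22 and 7.41, 8.16 and 7.57 at D28. Every cultured library was above 8.5 dpp and below 14.5 and 24.5 dpp. Against 14.5 dpp it was lower at D16, -1.26 (SE 0.18, adjusted p = 0.000943), D22, -1.41 (SE 0.18, adjusted p = 0.000427), and D28, -1.39 (SE 0.18, adjusted p = 0.000416). These p values are of the single contrasts, and the F test over the 3 contrasts gave an adjusted p of 0.00125. These 3 comparisons share their controls, and Sohlh2 is in the study's own list of genes selected on the same libraries, so its direction is not independent evidence. In the comparisons of equal age it was lower at D16, -2.22 (SE 0.14, adjusted p = 2.49e-05), and at D22, -0.96 (SE 0.17, adjusted p = 0.00117). The D22 call was lost without the second D22 library, -0.90 (adjusted p = 0.00668), or the third, -0.90 (adjusted p = 0.00628). At D28 the groups did not overlap, but the difference of -0.54 (SE 0.10, adjusted p = 0.00129) missed the ratio of 2. The call at D6 against 14.5 dpp, -0.95 (SE 0.22, adjusted p = 0.0371), was lost with a pseudocount of 0.1, -1.01 (adjusted p = 0.0547), with no filter, -0.95 (adjusted p = 0.0603), without the second 14.5 dpp library, -0.70 (adjusted p = 0.141), and without any 1 of the 3 D6 libraries, -1.10 (adjusted p = 0.0657), -0.92 (adjusted p = 0.102) and -0.85 (adjusted p = 0.104). It was lost with a replicate block too, -0.85 (adjusted p = 0.135), which lowered the number of all genes called there from 898 to 376. That fit holds only the libraries of D6 and 14.5 dpp, so the block leaves little to estimate the spread. Against 8.5 dpp Sohlh2 was higher at D6, 1.78 (SE 0.15, adjusted p = 8.65e-07), and D28, 1.35 (SE 0.15, adjusted p = 4.93e-06).

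**Figure D2:**
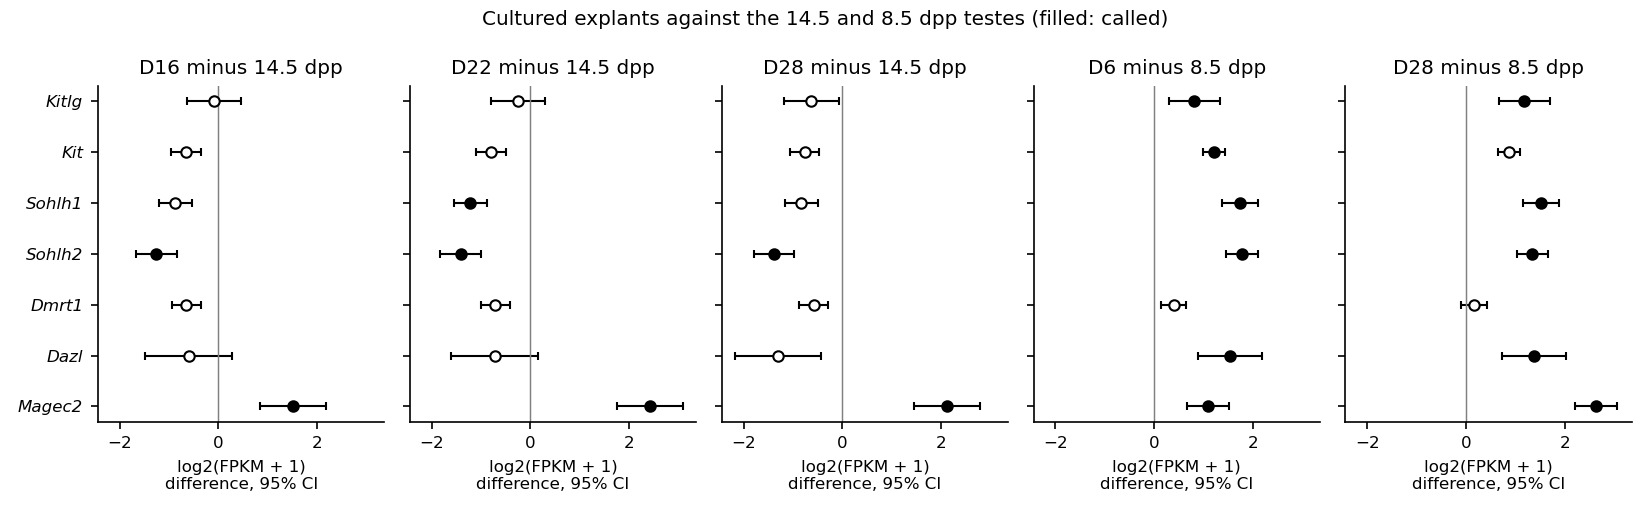
Difference in log2(FPKM + 1) of 7 genes between explants and the 14.5 or 8.5 dpp testis, with 95% confidence intervals and filled points for called genes. Against 14.5 dpp Sohlh2 was lower at all 3 times (-1.26, -1.41 and -1.39) and Magec2 higher (1.52, 2.43 and 2.12).

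Dmrt1 (Entrez Gene 114498), a transcription factor gene of Sertoli cells and spermatogonia, had 90.6, 81.8 and 72.5 FPKM at 8.5 dpp, 138 and 136 at 14.5 dpp and 55.0, 44.8 and 84.4 at 24.5 dpp. The older testes had 20.4, 13.0 and 18.3 FPKM at 30.5 dpp, 13.6, 13.3 and 10.5 at 36.5 dpp and 7.35, 6.43 and 8.82 at 53.5 dpp. Both 14.5 dpp libraries were above every other library. The difference to 14.5 dpp, 0.75 (SE 0.23, adjusted p = 0.0206), missed the ratio of 2, and Dmrt1 fell to 24.5 dpp, -1.20 (SE 0.23, adjusted p = 0.000496), and to 30.5 dpp, -1.75 (SE 0.21, adjusted p = 5.33e-06). Without the second 24.5 dpp library the first of these falls was -1.0 (adjusted p = 0.00236) and not called.

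Cultured Dmrt1 levels were 97.2, 107 and 119 FPKM at D6, 80.4, 93.9 and 87.9 at D16, 84.9, 76.0 and 91.0 at D22 and 104, 79.4 and 92.9 at D28. They overlapped the 8.5 dpp range except at D6, and lay above all libraries of 30.5 dpp and older. Dmrt1 was higher than in the testis of the same age at D22, 2.24 (SE 0.17, adjusted p = 1.49e-05), and D28, 2.79 (SE 0.15, adjusted p = 1.44e-06). At D16 it was 0.55 (SE 0.22, adjusted p = 0.0615) and at D6 -0.35 (SE 0.13, adjusted p = 0.122), neither called. Against 14.5 dpp it was -0.65, -0.71 and -0.58 (F test, adjusted p = 0.00878), below the ratio of 2. Against 8.5 dpp it was 0.39 at D6 and 0.17 at D28, again not called.

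Dazl (Entrez Gene 680486), the RNA-binding protein gene, was at 21.9, 20.6 and 21.1 FPKM at 8.5 dpp, 94.9 and 208 at 14.5 dpp and 235, 317 and 389 at 24.5 dpp. Values were 130.4, 92.8 and 106 FPKM at 30.5 dpp, 78.4, 63.7 and 84.3 at 36.5 dpp and 39.7, 41.8 and 31.8 at 53.5 dpp. The 2 libraries of 14.5 dpp differed by more than those of any other in vivo age in proportion to their level, and both lay below the lowest 24.5 dpp library. Dazl rose to 14.5 dpp, 2.67 (SE 0.27, adjusted p = 8.88e-06), and to 24.5 dpp, 1.12 (SE 0.27, adjusted p = 0.00268), then fell to 30.5 dpp, -1.49 (SE 0.25, adjusted p = 9.10e-05). The rise to 24.5 dpp was lost without the first 14.5 dpp library, 0.56 (adjusted p = 0.0833), or the third 24.5 dpp library, 0.95 (adjusted p = 0.0116). The step from 36.5 to 53.5 dpp, -0.98 (SE 0.25, adjusted p = 0.00770), missed the ratio of 2 and passed it without the second 36.5 dpp library (-1.10), the first 53.5 dpp library (-1.02) or the second (-1.06).

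Dazl in explants was 88.9, 67.9 and 42.8 FPKM at D6, 105, 80.8 and 91.8 at D16, 103, 94.1 and 62.2 at D22 and 39.1, 91.0 and 50.3 at D28. The second D28 library was well above the other 2. All cultured libraries were above 8.5 dpp and below 24.5 dpp, and 8 of the 12 lay within the range of 30.5 and 36.5 dpp. Dazl was lower than at 24.5 dpp at D16, -1.73 (SE 0.20, adjusted p = 0.000267). At D22 and D28 the differences from the same age, -0.36 (SE 0.22, adjusted p = 0.159) and -0.40 (SE 0.30, adjusted p = 0.229), were not called. At D6 it was -1.13 (SE 0.41, adjusted p = 0.115), not called, and the fit of all 10 groups called it (adjusted p = 0.0128). Against 14.5 dpp Dazl was -0.61, -0.72 and -1.30 (SE 0.39; F test, adjusted p = 0.109), and none was called. The D28 difference was called by the moderated test of that contrast alone (adjusted p = 0.0248), by the fit of all 10 groups (0.00316) and without the second D28 library, -1.64 (adjusted p = 0.00726). Without the second 14.5 dpp library the 3 differences were closer to zero, -0.04, -0.16 and -0.74, and that of D6 was -0.57. Against 8.5 dpp Dazl was higher at D6, 1.55 (SE 0.30, adjusted p = 0.000936), and D28, 1.37 (SE 0.30, adjusted p = 0.00152).

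Magec2 (Entrez Gene 317590) is an X-linked gene of the melanoma antigen (MAGE) family, many members of which are expressed in germ cells. Its promoter, chrX:145646606-145646905 (plus strand) in GRCr8, is shown because it is the member that was higher in culture than at 14.5 dpp and the only 1 of the 9 without CANNTG in this window. The capitals mark ACATTGT, the core of the sequence that DMRT proteins are known to bind, at -207.
Magec2: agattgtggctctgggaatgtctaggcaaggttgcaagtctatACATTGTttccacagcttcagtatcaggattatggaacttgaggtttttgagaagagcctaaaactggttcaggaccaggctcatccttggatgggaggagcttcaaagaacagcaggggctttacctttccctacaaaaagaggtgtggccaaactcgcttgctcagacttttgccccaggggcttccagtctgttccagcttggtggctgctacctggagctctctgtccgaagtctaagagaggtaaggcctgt
Searched on both strands, ACATTGT is in 3.22% of the 33469 promoters, and of the 9 members only Magec2 holds it.

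The testes had 0.841, 0.783 and 0.628 FPKM of Magec2 at 8.5 dpp, 0.877 and 2.32 at 14.5 dpp and 121, 125 and 87.1 at 24.5 dpp. Later it was at 62.5, 42.7 and 51.9 FPKM at 30.5 dpp, 36.9, 36.7 and 35.1 at 36.5 dpp and 26.7, 26.8 and 24.4 at 53.5 dpp. The 5 libraries of 8.5 and 14.5 dpp were at 2.32 FPKM or less, and those of 24.5 dpp and older were all at 24.4 FPKM or more. Magec2 rose from 14.5 to 24.5 dpp by 5.47 (SE 0.21, adjusted p = 1.06e-10), and fell to 30.5 dpp, -1.07 (SE 0.19, adjusted p = 0.000175). Its level was thus lowest in the youngest testes and rose over the interval in which the summed spermatocyte markers went from a mean of 44.0 to 937 FPKM. Which cells held its RNA was not tested. From 8.5 to 14.5 dpp the difference was 0.51 (SE 0.21, adjusted p = 0.0706) and not called. It was called with a pseudocount of 0.1, 0.86 (adjusted p = 0.0355), without the first 14.5 dpp library, 0.93 (adjusted p = 0.00360), and, with the same difference, without the third 24.5 dpp library (adjusted p = 0.0490). Without the second 14.5 dpp library it was 0.10.

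Explants had 3.08, 2.55 and 2.61 FPKM of Magec2 at D6, 7.11, 5.51 and 5.89 at D16, 12.8, 11.4 and 13.2 at D22 and 6.06, 12.7 and 12.3 at D28. All cultured libraries were above 14.5 dpp and all were below 24.5 dpp and every later age. Magec2 was higher than at 14.5 dpp at D16, 1.52 (SE 0.30, adjusted p = 0.00456), D22, 2.43 (SE 0.30, adjusted p = 0.000333), and D28, 2.12 (SE 0.30, adjusted p = 0.000600). For Magec2 too these p values are of the single contrasts (F test, adjusted p = 0.00132). Like Sohlh2, it is in the study's own list selected on these libraries, and the 3 comparisons share controls. Against the same age it was lower at D16, -3.96 (SE 0.17, adjusted p = 6.77e-06), D22, -1.97 (SE 0.15, adjusted p = 1.44e-05), and D28, -1.77 (SE 0.25, adjusted p = 0.000323). At D6 it was 0.58 (SE 0.25, adjusted p = 0.156), not called, and called without the second 14.5 dpp library, 0.99 (adjusted p = 0.0340), while without the first it was 0.17. Against 8.5 dpp it was higher at D6, 1.10 (SE 0.20, adjusted p = 0.000562), and D28, 2.64 (SE 0.20, adjusted p = 1.59e-07). A pseudocount of 0.1 took the D6 value to 1.75.

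Neurog3 (Entrez Gene 60329) encodes a basic helix-loop-helix factor of undifferentiated spermatogonia. It was above 0 in 15 of 29 libraries and never above 0.164 FPKM, in the first D28 library. All libraries of 8.5 dpp, D16 and D22 were listed at 0, as were 2 libraries each of D6 and D28 and 1 of 53.5 dpp. At 14.5 dpp the values were 0.0473 and 0.0214 FPKM, and at 36.5 dpp 0.0767, 0.0491 and 0.0299. Without read counts, such levels cannot be told from absence, and no test was made.

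Explants of D16, D22 and D28 were set against 14.5 dpp, the reference of the study's own selection of genes, and the 3 comparisons share it. Of the 7 genes, Magec2 was higher and Sohlh2 lower at D16, where 11.9% of 11517 genes were called. At D22 Magec2 was higher and Sohlh1 and Sohlh2 lower, against 12.9%, and at D28 Magec2 was higher and Sohlh2 lower, against 13.6%. In all, 7 of 21 pairs of a gene and a comparison were called. Set against the testis of equal age, D6 had 1 called (Sohlh2 lower) against 7.94% of genes. With a replicate block, which leaves little to estimate the spread in so small a fit, that call was lost and the genes called at D6 went from 898 to 376. D16 had 1 higher (Kitlg) and 3 lower (Sohlh2, Dazl and Magec2) against 43.6%. D22 had 3 higher (Kitlg, Sohlh1 and Dmrt1) and 2 lower (Sohlh2 and Magec2), against 65% of genes. D28 had 4 higher (Kitlg, Kit, Sohlh1 and Dmrt1) and 1 lower (Magec2), against 70.3% of genes. At D22 and D28 the share of members called, 5 of 7 each, is close to that of all genes.

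**Figure D3:**
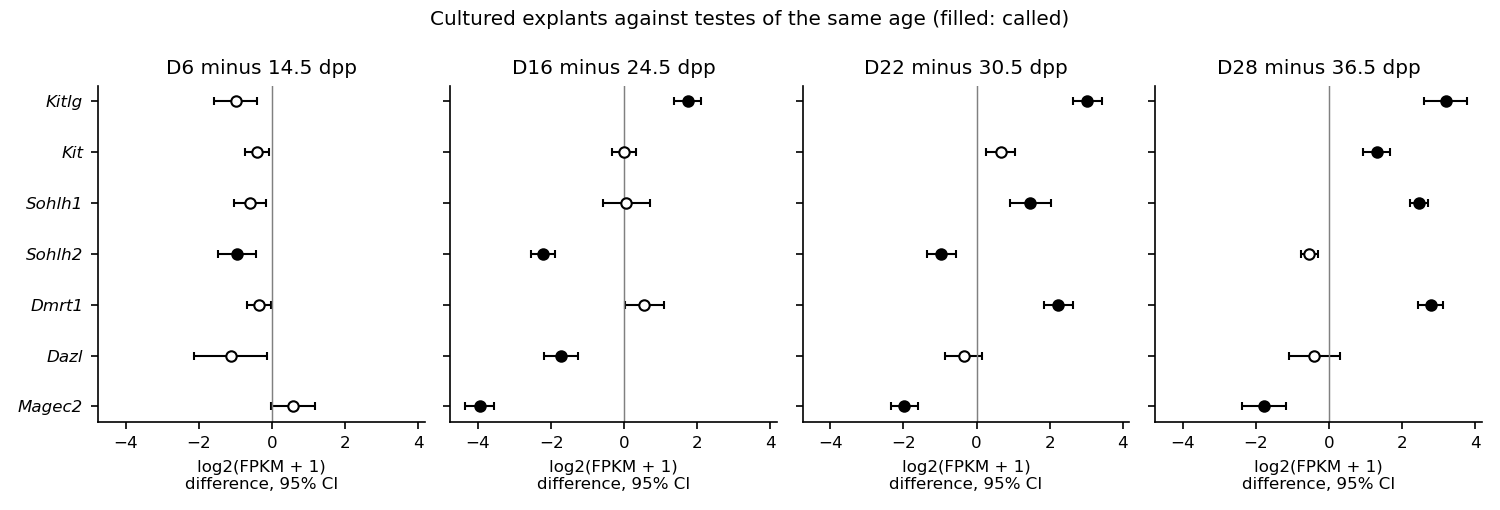
Difference in log2(FPKM + 1) of 7 genes between explants and the testis of equal age, with 95% confidence intervals and filled points for called genes. Kitlg went from -0.99 at D6 to 3.20 at D28, and Magec2 was lower from D16 on (-3.96, -1.97 and -1.77).

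Against 8.5 dpp, the age at which culture began, 6 of the 7 genes were higher at D6 (Dmrt1 was not called) and none lower, where 16.1% of 11539 genes were called. At D28, 5 were higher (Kitlg, Sohlh1, Sohlh2, Dazl and Magec2), against 24%. Within the culture, only Magec2 rose from D6 to D16, 0.93 (SE 0.20, adjusted p = 0.00667), against 3.21% of genes. Kitlg had 0.90 (SE 0.24, adjusted p = 0.0203) in that step and missed the ratio of 2. From D16 to D28 limma called 0 of the 7, against 0.936% of genes, with an unadjusted p under 0.05 for 3 (Kitlg -0.53, Dazl -0.70 and Magec2 0.61). In that step Magec2 was called without the first D28 library, 0.92 (adjusted p = 0.00140), and Dazl without the second, -1.04 (adjusted p = 0.0325).

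The difference between a step in culture and the same step in vivo was tested as an interaction in limma, called at an adjusted p of at most 0.05 and a size of at least 1. For D6 to D16 against 14.5 to 24.5 dpp, 3 of the 7 genes were called, where 24.2% of 12581 genes were. Kitlg fell by 1.82 in vivo and differed by 0.90 in culture, an interaction of 2.72 (SE 0.33, adjusted p = 4.09e-07). Sohlh2 and Magec2 gave -1.27 (SE 0.23, adjusted p = 9.74e-05) and -4.54 (SE 0.31, adjusted p = 5.69e-11). Kit, Sohlh1, Dmrt1 and Dazl had 0.41, 0.67, 0.90 and -0.60 and were not called. Dmrt1 was called without the third 24.5 dpp library, 1.16 (adjusted p = 0.000290), and Dazl without the second 14.5 dpp library, -1.16 (adjusted p = 0.0448), while without the first Dazl was -0.04.

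For D16 to D28 against 24.5 to 36.5 dpp all 7 were called and positive, from 1.31 for Kit to 2.40 for Sohlh1, where 40.9% of genes were called, 3523 positive and 1622 negative, with a median of 0.49 over all genes. Quantile normalization and upper quartile scaling lowered that median by 0.19 and 0.21 and left 2189 positive and 1869 negative, or 2278 and 2014. All 7 stayed positive under both. Kit was 0.80 (adjusted p = 0.000376) and no longer called under the first, and Dazl, 1.33 (SE 0.42, adjusted p = 0.00779) as reported, was 1.0 (adjusted p = 0.0380) and just short of 1 under the second. Dazl was also not called without the second D28 library, 0.99 (adjusted p = 0.0334).

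Levels were also set against a reference within each library, with no test. Ddx4, an RNA helicase gene of germ cells, had a mean of 3.76, 13.5 and 67.9 FPKM at 8.5, 14.5 and 24.5 dpp and 6.91, 7.01, 7.60 and 5.82 FPKM at D6, D16, D22 and D28. The ratio of Kit to Ddx4 had a mean (lowest to highest) of 1.26 (1.15 to 1.34) at 8.5 dpp, 1.27 (1.14 to 1.40) at 14.5 dpp, 0.157 (0.114 to 0.207) at 24.5 dpp and 0.0454 (0.0304 to 0.0627) at 36.5 dpp. In culture it was 1.94 (1.38 to 2.80), 1.46 (1.36 to 1.54), 1.23 (0.938 to 1.41) and 1.69 (1.27 to 2.12) at D6, D16, D22 and D28. These ratios were close to or above the youngest testes and far above 24.5 dpp. At D16 the level of Kit itself overlapped 24.5 dpp (difference -0.01), with Ddx4 at 7.01 against 67.9 FPKM. Sohlh1 to Ddx4 had a mean of 1.54 (1.27 to 1.80) at 14.5 dpp and 0.162 at 24.5 dpp, and of 1.95, 1.5, 1.10 and 1.96 at D6, D16, D22 and D28. Sohlh2 to Ddx4 had 1.64 (1.62 to 1.67) at 14.5 dpp and 0.649 at 24.5 dpp. Over the culture times it had 1.64, 1.22 (1.09 to 1.38), 1.0 (0.837 to 1.12) and 1.37 (1.09 to 1.64), so that D16 and D22 lay below 14.5 dpp with no overlap. Dazl to Ddx4 had 10.8 (8.76 to 12.8) at 14.5 dpp, 4.70 at 24.5 dpp and 9.63, 13.2, 11.3 and 10.0 in culture. Magec2 to Ddx4 was 0.112 at 14.5 dpp, 1.63 at 24.5 dpp and 0.492 at 36.5 dpp. In culture it went from 0.427 at D6 to 0.880, 1.67 and 1.76 at D16, D22 and D28, so that D22 and D28 had the ratio of 24.5 dpp at a much lower level of both genes.

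Sox9, a Sertoli cell transcription factor gene, had a mean of 36.5 FPKM at 8.5 dpp, 65.9 at 14.5 dpp and 4.63 at 36.5 dpp, and between 46.6 and 50.9 FPKM in the 4 culture groups. The ratio of Kitlg to Sox9 had a mean of 1.21 at 8.5 dpp, 2.37 at 14.5 dpp and 2.15 at 36.5 dpp, and of 1.54, 3.10, 2.61 and 2.16 in culture. Dmrt1 to Sox9 lay between 1.70 and 3.59 over all 10 groups. Both genes thus varied far less against Sox9 than in FPKM. Dmrt1 to Ddx4, in contrast, ran from a mean of 21.7 at 8.5 dpp to 0.134 at 53.5 dpp, and lay between 11.3 and 17.4 in culture. Kitlg to Kit, ligand to receptor, was 9.21 and 9.20 at 8.5 and 14.5 dpp and 3.20 at 36.5 dpp, against 6.45, 14.1, 14.6 and 11 in culture. Sohlh1 to Sohlh2 had a mean of 1.36 at 8.5 dpp, 0.933 at 14.5 dpp and 0.239 at 24.5 dpp, and means between 1.11 and 1.41 in culture. Single cultured libraries ran from 0.754, at D22, to 1.55, at D28.

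**Figure D4:**
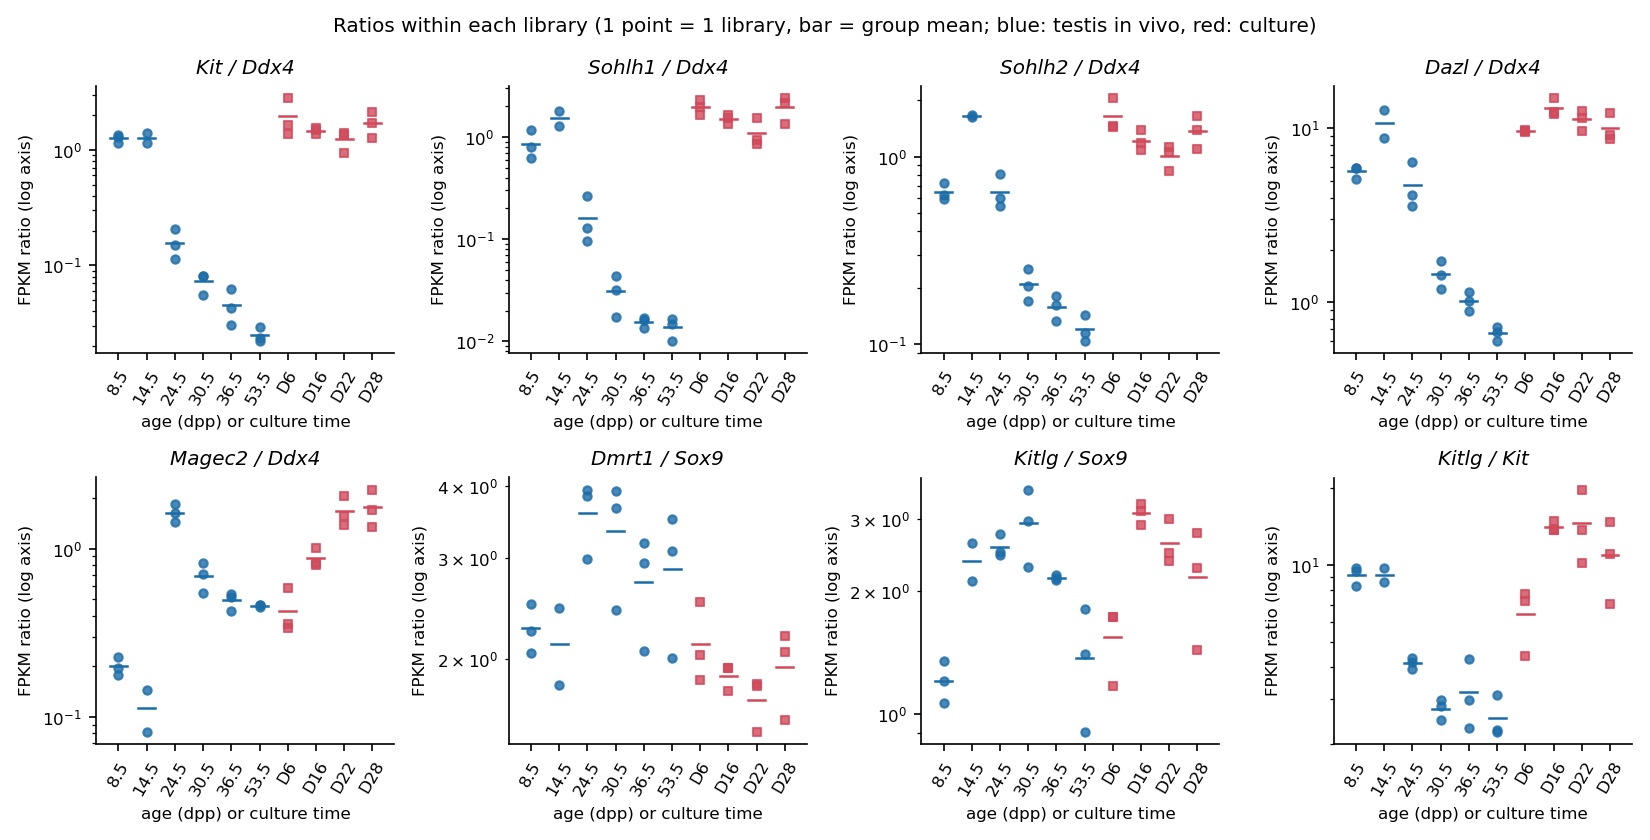
FPKM ratio of 8 pairs of genes within each library, on log axes (points are libraries, bars are group means). Kit to Ddx4 was 1.27 at 14.5 dpp, 0.0454 at 36.5 dpp and 1.69 at D28.

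Markers of other cells moved in the same comparisons. At D28 against 36.5 dpp, where 46.7% of all genes tested were higher and 23.6% lower, 9 of 10 Sertoli cell markers were higher and none lower, all 6 spermatocyte markers were lower, all 4 germ cell markers tested were lower, and 4 of 6 Leydig cell markers were lower. At D16 against 24.5 dpp, where 25.3% of all genes were higher and 18.3% lower, 5 of 10 Sertoli cell markers were higher, and all 4 germ cell and all 5 spermatocyte markers tested were lower. The 6 spermatocyte markers, led by Sycp3, summed to a mean of 44.0 FPKM at 14.5 dpp, 937 at 24.5 dpp and 391 at 36.5 dpp, and to 16.3, 27.7, 37.0 and 26.6 in culture, with Spag6 at 0 in all 4 culture groups and also at 8.5, 14.5 and 24.5 dpp. The 2 libraries of 14.5 dpp were at 14.5 and 73.5 FPKM in this sum, and the means in culture lay between them. The 5 spermatid markers, led by Tnp1, summed to 3060.1 FPKM at 36.5 dpp and 4.46 at D28, with Acrv1, Tnp1 and Spata18 at 0 at D28. Leydig cell markers (6 genes, led by Insl3) summed to 225 FPKM at 14.5 dpp and 29 at D28, with the 2 libraries of 14.5 dpp at 145 and 306. Of these markers 5 of 6 were lower at D28 against 14.5 dpp, where 6.01% of all genes tested were lower. Endothelial markers (5, led by Cdh5) had 28.3 and 58.7 FPKM in these groups, peritubular markers (4, led by Acta2) 289.8 and 81.3, and macrophage markers (5, led by Mrc1) 13.8 and 21.1. Mast cells are among the cells outside the germ line that carry KIT. Their summed marker level (7 genes, led by Hdc) was 0.615 FPKM at 14.5 dpp and 0.471 at D28. Cpa3, Tpsab1, Cma1, Ms4a2, Fcer1a and Mcpt1 were at 0 in both. The part of any of these cells, Leydig cells included, in the results for Kit and the rest of the 7 genes was not tested.

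Downstream of the receptor, 33 of 34 listed genes of Kit signalling were in the table and 31 were tested. For this list and the others, the shares of all genes tested that were higher and lower were 8.37% and 6.32% from 8.5 to 14.5 dpp, 14.2% and 21.4% from 14.5 to 24.5 dpp, and 7.63% and 6.01% at D28 against 14.5 dpp. They were 25.3% and 18.3% at D16 against 24.5 dpp and 46.7% and 23.6% at D28 against 36.5 dpp. From 8.5 to 14.5 dpp 3 were higher and 1 lower (median 0.24, 0.05 over all genes), with Mitf at 1.28 (adjusted p = 0.000191), Mtor at 1.07 (adjusted p = 4.08e-06), Foxo1 at 0.96 (adjusted p = 0.000637) and Lyn at -0.93 (adjusted p = 0.000444). That is about the share called among all genes, 14.7%. At D28 against 14.5 dpp only Akt2 was called, 0.94 (adjusted p = 0.0113), with a list median of 0.04 and -0.08 over all genes. The 2 libraries of 14.5 dpp stood apart for Akt2, at 32.5 and 51.4 FPKM, and those of D28 lay between 60.4 and 94.5 FPKM. At D16 against 24.5 dpp 11 were higher and 2 lower (median 0.55, 0.12 over all genes). At D28 against 36.5 dpp 22 were higher and 1 lower (median 1.64, 0.64 over all genes), led by Akt1 at 3.43 (adjusted p = 6.32e-07), Foxo3 at 3.16 (adjusted p = 4.05e-07), Src at 3.05 (adjusted p = 3.23e-07) and Mapk3 at 2.95 (adjusted p = 6.62e-07). The share called is close to the share of all genes, 70.3%. Quantile normalization and upper quartile scaling moved the median of all genes in this comparison by -0.23 and -0.20, and by -0.17 and -0.15 at D22 against 30.5 dpp.

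Of 20 listed genes of undifferentiated spermatogonia, 16 were in the table. At 14.5 against 8.5 dpp 1 of 15 was higher and 3 lower (median -0.20, 0.05 over all genes), with Bcl6b at -1.45 (adjusted p = 1.09e-06) and Etv5 at -1.25 (adjusted p = 0.000617), transcription factor genes of stem cell maintenance, Lhx1 at -1.0 (adjusted p = 7.47e-06) and Zbtb16 at 0.91 (adjusted p = 0.00133). At D28 against 14.5 dpp 3 of 14 were higher and 1 lower (median 0.28, -0.08 over all genes), with Id4 at 1.61 (adjusted p = 0.000342), Bcl6b at 1.29 (adjusted p = 0.00112), Itga6 at 1.12 (adjusted p = 0.00399) and Lin28a at -0.75 (adjusted p = 0.00104). The 2 libraries of 14.5 dpp stood apart for Itga6, at 24.8 and 47.0 FPKM, and those of D28 lay between 65.1 and 89.5 FPKM. In vivo Id4 went from a mean of 5.89 FPKM at 14.5 dpp to 63.7 at 24.5 dpp, a step in which 1 of 15 listed genes was higher and 10 were lower, and it had 19.8 at D28. Bcl6b had means of 6.23, 1.66 and 5.49 FPKM at 8.5 dpp, 14.5 dpp and D28, where the summed endothelial markers had 45.5, 28.3 and 58.7. The part of other cells in these values was not tested. At D28 against 36.5 dpp 13 of 14 were higher (median 1.61, 0.64 over all genes), led by Itga6 at 4.80 (adjusted p = 6.45e-08), Bcl6b at 2.41 (adjusted p = 1.34e-06), Ret at 2.01 (adjusted p = 5.38e-06) and Nanos3 at 1.91 (adjusted p = 0.000133), and Id4 was lower, -1.41 (adjusted p = 8.19e-05). Of 16 listed genes of differentiating spermatogonia and the premeiotic stage, 10 were in the table. From 8.5 to 14.5 dpp 6 of 10 were higher and 1 lower (median 1.3, 0.05 over all genes), with Dmrtb1, a transcription factor gene of the entry into meiosis, at 4.66 (adjusted p = 3.25e-10), Elavl2 at 1.80 (adjusted p = 0.000104), Dnmt3b at 1.77 (adjusted p = 5.29e-06) and the cyclin gene Ccnd2 at -1.86 (adjusted p = 5.29e-06). At D28 against 14.5 dpp 4 of 9 were lower and none higher (median -1.02, -0.08 over all genes), namely Dmrtb1, -1.45 (adjusted p = 0.0146), Elavl2, -1.32 (adjusted p = 0.00522), Ccnd1, -1.15 (adjusted p = 0.000698), and Dnmt3b, -1.02 (adjusted p = 0.000309). At D28 against 36.5 dpp 6 of 9 were higher and 2 lower (median 1.72, 0.64 over all genes). Lower were Rec8, a meiotic cohesin gene, at -4.24 (adjusted p = 1.40e-06), and Dmrtb1 at -2.37 (adjusted p = 4.14e-05). Ccnd2 at 2.74 (adjusted p = 2.44e-06) and Uchl1 at 2.34 (adjusted p = 1.11e-06) were among the higher. Whether the genes of this list, Ccnd2 and Uchl1 included, are confined to differentiating and premeiotic cells was not tested.

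Beside Dazl, 11 of 12 listed genes of the DAZ family and germline RNA-binding proteins were in the table and 10 were tested, and 3 of them (Ddx4, Mael and Tdrd1) are also among the germ cell markers. At 24.5 against 14.5 dpp 6 were higher and none lower (median 1.5, -0.13 over all genes), led by Ddx25 at 4.01 (adjusted p = 1.37e-08) and Tdrd1 at 3.37 (adjusted p = 1.07e-09). At D16 against 24.5 dpp 7 were lower and none higher (median -2.24, 0.12 over all genes), led by Ddx25, -4.92 (adjusted p = 2.12e-05), Tdrd1, -4.32 (adjusted p = 5.99e-06), Mael, -3.94 (adjusted p = 5.60e-06), and Ddx4, -3.10 (adjusted p = 5.51e-06). At D28 against 14.5 dpp Ddx4, -1.08 (adjusted p = 0.00245), and Cpeb1, -1.02 (adjusted p = 0.00139), were lower and none was higher (median -0.61, -0.08 over all genes). Of 17 listed factors related to SOHLH and DMRT1, 15 were in the table. From 8.5 to 14.5 dpp 4 of 11 were higher (median 0.22, 0.05 over all genes), with Dmrta1 at 2.87 (adjusted p = 3.65e-06) beside Dmrtb1, which the list of differentiating spermatogonia also holds. At D16 against 24.5 dpp 3 of 10 were higher and 4 lower (median -0.46, 0.12 over all genes), led by Dmrtc2 at -3.91 (adjusted p = 3.70e-06) and Dmrt2 at -2.18 (adjusted p = 9.25e-05). At D28 against 14.5 dpp only Dmrtb1 of 10 was called.

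**Figure D5:**
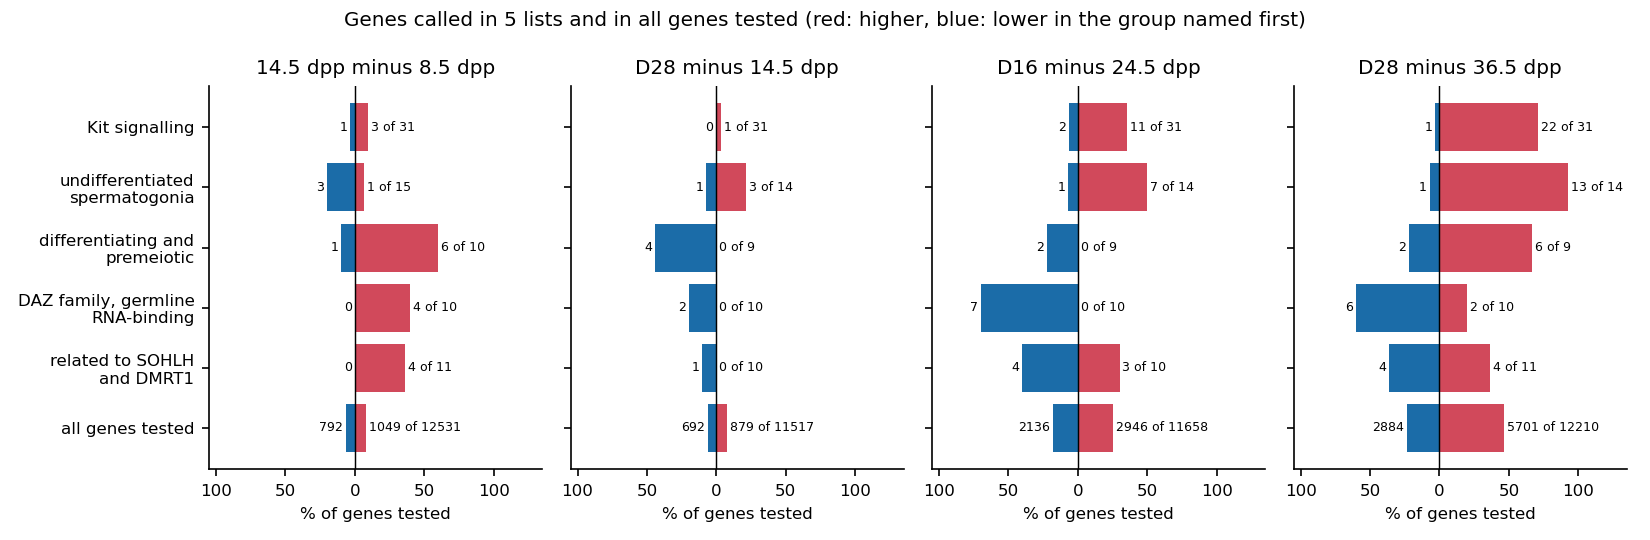
Percent of genes tested that were higher (red) or lower (blue) in the group named first, for 5 lists and all genes, in 4 comparisons. At D28 minus 36.5 dpp 22 of 31 Kit signalling genes were higher, and at D28 minus 14.5 dpp 1 was.

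Ordered by median over the 10 groups, Kit ran from 14.5 dpp through D6, D16, 24.5 dpp, D28, D22, 30.5 dpp and 8.5 dpp to 36.5 and 53.5 dpp, and neighbours overlapped from D16 to D22 and from 30.5 to 36.5 dpp. Kitlg ran from 14.5 dpp through D16, D22, D28 and D6, each overlapping the next, to 8.5 and 24.5 dpp, which overlapped, and then down by age with no overlap. Sohlh1 ran from 14.5 dpp through D6, D28, D16, 24.5 dpp and D22, with overlap between neighbours from D6 to D22, to 8.5 and 30.5 dpp, which overlapped, and then the oldest testes. Sohlh2 ran from 24.5 dpp to 14.5 and 30.5 dpp, then 36.5 dpp, D6, D16, D28, D22 and 53.5 dpp, with overlap between neighbours except from 24.5 to 14.5 dpp and from 30.5 to 36.5 dpp, and last, apart, 8.5 dpp. Dmrt1 ran from 14.5 dpp through D6, D28, D16, D22, 8.5 dpp and 24.5 dpp, with overlap between neighbours from D6 to 24.5 dpp, to the older testes. Dazl ran from 24.5 dpp to 14.5 dpp, 30.5 dpp, D22, D16, 36.5 dpp, D6, D28 and 53.5 dpp, all overlapping the next from 14.5 dpp on, and last 8.5 dpp. Magec2 had the clearest order, with the 4 oldest ages apart from each other, highest at 24.5 dpp and lowest at 53.5 dpp, and above D22, D28, D16, D6, 14.5 dpp and 8.5 dpp, and among these D22 overlapped D28 and D28 overlapped D16.

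Across the 10 group means of log2(FPKM + 1), each gene had close neighbours among all genes whose median reached 0.5 FPKM in some group, given as Pearson r without a test. Nearest to Kitlg were Lrrc47 (0.994), Ccng2 (0.993) and Tmtc3 (0.993), and 1009 genes reached 0.95. Nearest to Kit were Gdap2 (0.983), Fnip2 (0.983) and Lonrf3 (0.983), with 119 genes at 0.95 or more. Sohlh1 had Aifm3, Rassf5 and Kif26a (0.991 each) and 125 such genes, and Dmrt1 had Prep (0.997), Mettl13 (0.997) and Ehmt1 (0.997) and 2044 such genes. Far fewer genes had a course close to those of the other 3. Sohlh2 had Naf1 (0.977), Tspan33 (0.973) and Wdr46 (0.960) and 6 genes at 0.95 or more, Dazl had Med13 (0.985), Afg2a (0.979) and Nek1 (0.978) and 18, and Magec2 had Aqp2 (0.983), Id4 (0.976) and Celsr3 (0.975) and 17. Among the members, Kitlg with Dmrt1 had r = 0.958 and Sohlh2 with Dazl 0.949, while Sohlh1 with Sohlh2 had 0.348 and Dmrt1 with Magec2 -0.638.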

How the data were processed

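RNA of 29 libraries was compared: 17 of testes and 12 of cultured explants. The authors sequenced single reads of 50 bases, aligned them to rn6 with STAR 2.5.2a and quantified genes with StringTie and Ballgown; the deposited values are FPKM, 1 per Entrez Gene identifier. Read counts are not in the table, so the absolute depth of each library and the precision it gives are unknown. A relative depth, estimated from 1013 genes, lay between 0.818 and 1.485. 1 more library of 14.5 dpp, named an outlier by the authors, was at 0 for all 17322 genes and was left out.

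Log2(FPKM + 1) was fitted with limma 3.58.1 in R 4.3.3, for genes whose median reached 0.5 FPKM in a compared group. Successive ages were 5 contrasts of 1 fit. D16, D22 and D28 were set against 14.5 dpp by the F test over 3 contrasts, and each culture time against its age in a fit of its own. Comparisons with 8.5 dpp and within the culture came from 1 fit, and interactions from a fit of all 10 groups. P values were adjusted by Benjamini-Hochberg over all genes tested, and all tests of single contrasts were two-sided. Called genes had an adjusted p of at most 0.05 and a ratio of medians of at least 2, or for interactions a log2 size of at least 1. The code was tested on simulated data. The other values were computed in Python 3.11.15 (pandas 2.3.3, numpy 2.4.6), and figures drawn with matplotlib 3.10.9.

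Named genes are the 9 members, up to 4 called genes with the largest log2 difference from each list in a comparison, Id4 as the only gene of its list lower at D28 against 36.5 dpp, the 3 genes most like each member, and Ddx4 and Sox9 as references. The members and lists were chosen with earlier results of these data known. Alternatives were another pseudocount, filter, fold requirement, scaling, variance prior, set of groups in the fit and test, the replicate number as a block, and leaving out each library in turn. Promoters of all 9 members were matched by gene in the RefSeq table for GRCr8.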

Additional observations from a re-analysis of the deposited data

Results flagged for a closer look

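All of these results were marked because the change over an interval in culture differed from the change over the same interval in vivo, by limma's test of the difference. For D6 to D16 against 14.5 to 24.5 dpp the differences of log2 changes were 2.72 for Kitlg (adjusted p = 4.09e-07), -1.27 for Sohlh2 (adjusted p = 9.74e-05) and -4.54 for Magec2 (adjusted p = 5.69e-11). For D16 to D28 against 24.5 to 36.5 dpp they were 1.31 for Kit, 1.46 for Kitlg, 2.40 for Sohlh1, 1.68 for Sohlh2, 2.24 for Dmrt1, 1.33 for Dazl and 2.18 for Magec2, with adjusted p values from 9.01e-08 for Dmrt1 to 0.00779 for Dazl. Over that interval 40.9% of all genes tested passed the same rule, 3523 positive and 1622 negative. Under quantile normalization 2189 were positive and 1869 negative and Kit, at 0.80, was not called. Under upper quartile scaling 2278 were positive and 2014 negative and Dazl, just under 1.0, was not called, nor was it without the second D28 library, at 0.99.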

How the results depend on the processing

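The number of called pairs of a gene and a comparison was 18 between successive ages, 7 against 14.5 dpp, 15 against the same age, 11 against 8.5 dpp, 1 within the culture and 10 for the interactions. Leaving out 1 library at a time gave 17 to 19, 7 to 9, 14 to 15, 10 to 12, 1 to 2 and 9 to 11. A lone 14.5 dpp library was then assumed to vary like the other groups. The other alternatives gave 18 to 27, 7 to 15, 14 to 18, 11 to 13, 1 to 2 and 9 to 11. Dropping the fold requirement gave 15 against 14.5 dpp and 2 within the culture, where Kitlg from D6 to D16 was added. The number within the culture was also 2 without the first D28 library and 2 without the second.

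Under the alternatives run, signs turned only for differences that were not called. Kit at D16 against 24.5 dpp was 0.026 under quantile normalization and 0.025 under upper quartile scaling, and ranged from -0.11 without the second 24.5 dpp library to 0.13 without the third, with 0.0072 without the third D16 library. Sohlh1 in that comparison was -0.055 and -0.14 without the first or second 24.5 dpp library, -0.033 without the third D16 library and at most 0.37, without the third 24.5 dpp library. From D16 to D28 Sohlh1 was -0.030 without the first D16 library, -0.0086 without the third D28 library and at most 0.14, without the third D16 library, and Dmrt1 was -0.022 without the first D28 library. The cause of these changes was not tested.

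Over all genes, quantile normalization and upper quartile scaling moved the median by 0.11 and 0.18 from 24.5 to 30.5 dpp and by 0.20 and 0.17 from 36.5 to 53.5 dpp, where 64.9% and 56.6% of called genes were then higher, against 40% as reported.

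With a replicate block, that is the replicate number as a term in the fit, the counts were 19, 7, 14, 11, 1 and 10 in the order above. Sohlh2 at D6 against 14.5 dpp was then -0.85 (adjusted p = 0.135) and not called, and 376 genes were called there in place of 898. The block leaves little to estimate the spread in that fit, so the loss cannot be read as an effect of the replicate number. Sohlh1 from 30.5 to 36.5 dpp was called with the block, at -0.60 (adjusted p = 0.0459). Residuals of libraries with the same number in different groups had a median correlation of 0.0166 over 126 pairs, so the numbers were not taken to pair the samples.

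Between 2 and 3 libraries a group limit the precision, and with no read counts low levels such as those of Neurog3 cannot be assessed.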
